A study of Mus musculus with 2 samples.

Results

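The genes described here are the nuclear-encoded subunits of oxidative phosphorylation, measured in layer 5 of the mouse cerebral cortex. They were chosen by symbol: protein-coding genes whose names begin with Nduf and the letter a, b, c, s or v before a number, the Sdh subunit genes, and the Uqcr, Cox4 to Cox8 and Atp5 families, leaving out Cox6a2. This gave 83 of 21474 protein-coding genes, of which 35 belong to complex I, 4 to complex II, 8 to complex III, 19 to complex IV and 17 to complex V. Ndufa4 and its relative Ndufa4l2 were placed with complex IV, where the Ndufa4 protein is known to sit despite its name. The data were 2 RNA-seq libraries from laser-captured areas of about 8000 square microns, entered in the labels as 50 cells each, from layer 5 of a wild-type C57Bl6 male (strain B6NCrl) aged 8 months. They carry the numbers 1 and 2 as biological replicates, yet 1 donor is named for both. They are treated as areas of 1 animal, and each SD written after ± is the spread between the areas. SDs across genes and posterior SDs are named as such. There was 1 group, with no treatment or genotype to compare, and a difference below is replicate 1 over replicate 2. Replicate 1 held 26059117 expected counts and replicate 2 held 28276843.

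Oxidative phosphorylation takes place in the inner mitochondrial membrane. Complexes I and II pass electrons from NADH and succinate to ubiquinone, complex III passes them on to cytochrome c, complex IV hands them to oxygen, and complex V, the ATP synthase, uses the proton gradient that complexes I, III and IV build. Most subunits are encoded in the nucleus, while mitochondrial DNA encodes the membrane-embedded core of complexes I, III, IV and V and no part of complex II. Neurons depend on this pathway to pay for ion pumping. Several complex IV subunits exist as a general form and a second form restricted to muscle, lung, testis or hypoxic cells.

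Promoters of many such genes are known targets of nuclear respiratory factor 1 (NRF1) and of the ETS-family factor GABP. RefSeq promoter sequences (GRCm38.p6, 250 bases before to 50 bases after the gene start) were found for 66 of the 83 genes. The NRF1 core, searched on both strands as GCGCA and GCGC with any 1 base between them, occurred in 17 of them (25.8%), against 15.1% of the 3515 promoters of protein-coding genes averaging at least 20 TPM and 5.19% of all 27025 promoters of this length. The ETS core, searched as CCGGAAG on both strands, occurred in 16 (24.2%), against 23.7% of the expressed genes and 9.93% of all promoters. The YY1 core AAGATGGCG occurred in 7 (10.6%), against 4.52% and 1.64%, and TATAAA also in 7 (10.6%), against 8.65% and 15.7%. The 66 include Cox8b, Cox7b2 and Cox6b2, which averaged under 20 TPM, and are thus not matched in level to the expressed genes. Cox8b and Cox7b2 were among the 7 with TATAAA, so whether members exceed expressed genes in TATAAA cannot be read from these shares. The sequences below are those of the most abundant NRF1-core gene of complexes IV, V and II, shown because each also holds the ETS core. Capitals mark the NRF1 and ETS cores or their reverse complements.
Cox6a1 (chr5:115348909-115349208, minus strand): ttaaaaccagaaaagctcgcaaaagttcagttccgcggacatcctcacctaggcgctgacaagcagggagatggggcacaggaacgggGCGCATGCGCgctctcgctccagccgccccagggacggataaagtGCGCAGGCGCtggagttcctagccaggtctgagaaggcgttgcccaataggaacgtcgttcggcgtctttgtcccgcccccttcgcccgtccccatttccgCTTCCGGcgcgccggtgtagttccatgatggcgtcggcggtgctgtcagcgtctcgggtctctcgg
Atp5h (chr11:115419870-115420169, minus strand): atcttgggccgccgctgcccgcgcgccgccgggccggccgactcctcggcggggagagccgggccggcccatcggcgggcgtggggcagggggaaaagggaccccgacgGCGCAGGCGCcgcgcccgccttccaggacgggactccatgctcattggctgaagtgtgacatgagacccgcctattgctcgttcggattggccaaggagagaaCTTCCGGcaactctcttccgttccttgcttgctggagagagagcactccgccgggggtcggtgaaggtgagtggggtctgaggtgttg
Sdhd (chr9:50603800-50604099, minus strand): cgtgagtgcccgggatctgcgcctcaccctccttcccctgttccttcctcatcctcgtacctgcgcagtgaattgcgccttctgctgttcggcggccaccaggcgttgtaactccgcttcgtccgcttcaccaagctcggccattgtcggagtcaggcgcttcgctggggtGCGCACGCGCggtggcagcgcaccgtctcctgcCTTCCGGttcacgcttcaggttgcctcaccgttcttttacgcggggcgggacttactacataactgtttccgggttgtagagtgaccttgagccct
Cox6a1 encodes a peripheral subunit of complex IV, Atp5h the d subunit of the ATP synthase stalk and Sdhd a membrane anchor of complex II. Their levels were 2190 TPM in replicate 1 and 1914 TPM in replicate 2 for Cox6a1, 1731 and 1376 TPM for Atp5h, and 233 and 248 TPM for Sdhd. TPM counts transcripts relative to all transcripts of a library, corrected for their length. Promoters holding the same letters belonged to genes of unlike level, and a match in these windows is a description of sequence, not of binding.

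Nuclear subunit genes were among the most abundant transcripts of layer 5. Together they took 7.08% of all TPM in replicate 1 and 5.94% in replicate 2. Of expected counts, which are not scaled for length, they took 3.38% in replicate 1 and 2.78% in replicate 2. In replicate 1, 34 of them stood among the 100 most abundant protein-coding genes, and in replicate 2 this held for 25. Their median was 684 TPM in replicate 1 against 612 TPM in replicate 2, beside 49.8 and 52.4 TPM as the medians of the 4422 protein-coding genes averaging 20 TPM or more. At 1 TPM or more there were 82 members in replicate 1 and 80 in replicate 2, and 75 members reached 100 TPM in each. A mean of 20 TPM or more, the minimum used for ratios below, was reached by 77 members. The 6 below it were all complex IV forms restricted to other tissues.

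**Figure D1:**
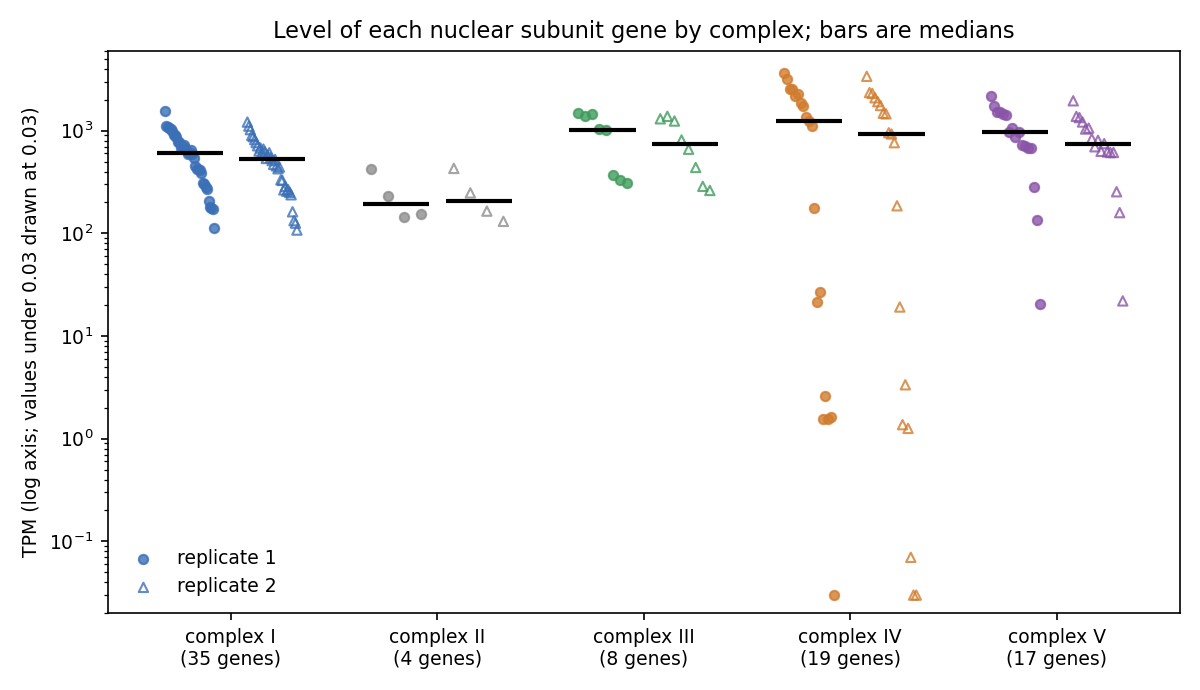
Level of each of the 83 genes by complex, in TPM on a log axis, with replicate 1 as filled circles, replicate 2 as open triangles and bars for medians. Complex IV holds both the most abundant genes and a group of restricted forms under 30 TPM.

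The complexes differed in level. Complex II was lowest, with a median of 194 TPM in replicate 1 against 206 TPM in replicate 2. Complex I followed with 611 and 524 TPM, complex V with 972 and 748, and complex III with 1019 and 735. Complex IV without its restricted forms had the highest median, 2025 TPM in replicate 1 and 1617 TPM in replicate 2 over 12 genes. Over all 19 genes its median was 1246 TPM in replicate 1 against 927 TPM in replicate 2. As mean and SD of the areas (n = 2), these medians were 200 ± 8.47 TPM for complex II, 568 ± 61.5 for complex I and 860 ± 159 for complex V. They were 877 ± 201 for complex III, 1086 ± 225 for all of complex IV and 1821 ± 289 for complex IV without restricted forms. The ranges of mean ± SD of complexes V, III and the whole of complex IV overlapped. The place of complex IV thus rests on how its restricted forms are counted: from the mean of log2(TPM + 1) over all 19 genes it was at 158 TPM, the lowest of the 5 complexes on that measure.

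Complex I was led by small accessory subunits of its membrane arm. Ndufc1 (chromosome 3, 51404677 to 51408988, mm10 as are all positions) had 1539 TPM in replicate 1 and 1212 TPM in replicate 2. Ndufb9 had 1116 and 1107 TPM, Ndufb8 1097 and 1023 TPM, and Ndufa1 1055 and 900 TPM in the same order. Replicate 1 was higher for each of these, by 0.34 on the log2 scale for Ndufc1 but 0.01 for Ndufb9. Transcripts annotated as coding held 50.5% of the TPM of Ndufc1 in replicate 1 and 49.6% in replicate 2. On coding transcripts alone Ndufc1 had 776 and 601 TPM, below Ndufb9, Ndufb8 and Ndufa1 by the same measure. The 7 core subunits, which carry the flavin and the iron-sulfur clusters, had a median of 303 TPM in replicate 1 and 266 TPM in replicate 2, against 658 and 540 TPM for the 28 accessory subunits. Ndufs1, the large iron-sulfur subunit, was the lowest gene of the complex with 112 and 108 TPM. Ndufb4, an accessory subunit of the membrane arm, was listed next to it with 171 and 126 TPM, a value that depends on a pseudogene described below.

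All 4 genes of complex II lay between 130 and 430 TPM. Sdhb, the iron-sulfur subunit, had 427 TPM in replicate 1 and 429 TPM in replicate 2. Sdha, the flavoprotein that oxidises succinate, had 144 and 165 TPM. The membrane anchor Sdhc had 155 TPM in replicate 1 and 131 TPM in replicate 2. The values of the other anchor, Sdhd, stand beside its promoter.

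In complex III the 5 small subunits stood apart from the large ones. Uqcrq, which lies beside cytochrome b, had 1500 TPM in replicate 1 and 1304 TPM in replicate 2. Uqcr11 had 1403 and 1380 TPM, Uqcr10 1465 and 1241 TPM, and Uqcrh, the hinge protein near cytochrome c1, 1029 and 812 TPM. Uqcrb, which contacts the ubiquinone site, had 1010 TPM in replicate 1 against 659 TPM in replicate 2 (chromosome 13, 66900617 to 66905378). Uqcrfs1, the Rieske iron-sulfur protein, had 308 and 262 TPM. The core proteins Uqcrc1 and Uqcrc2 had 374 and 332 TPM in replicate 1, against 438 and 287 TPM in replicate 2. No small subunit overlapped with a large one in either area.

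Complex IV held the most abundant member. Cox8a, the general form of its smallest subunit (ENSMUSG00000035885.4, chromosome 19, 7215153 to 7217616), had 3614 TPM in replicate 1 and 3382 TPM in replicate 2, ranks 15 and 16 among protein-coding genes. Cox6c had 3192 and 2347 TPM. Cox4i1, the regulatory subunit that binds ATP, had 2564 and 2305 TPM, and Ndufa4 (ENSMUSG00000029632.5, chromosome 6, 11900292 to 11907497) had 2554 and 2090 TPM. The 11 general forms had medians of 2190 TPM in replicate 1 and 1755 TPM in replicate 2. Cox7a2l, a factor that joins complexes III and IV into supercomplexes, was lower at 178 and 185 TPM.

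With all transcripts of a gene counted, complex V was led by Atp5b, the catalytic beta subunit (ENSMUSG00000025393.8, chromosome 10, 128083273 to 128090391), with 2183 TPM in replicate 1 against 1953 TPM in replicate 2. Atp5a1, the alpha subunit that forms the catalytic hexamer with it, was listed at 684 and 612 TPM. Atp5h, Atp5g1 (a c-ring gene) and Atp5j (coupling factor of the stalk) followed Atp5b, with 1528 and 1339 TPM for Atp5g1 and 1506 and 1214 TPM for Atp5j. This order changed on coding transcripts alone. By that measure Atp5b had 1232 TPM in replicate 1 and 1193 TPM in replicate 2, below Atp5h (1693 and 1364) and Atp5g1 (1528 and 1339). Atp5j had 537 and 469 TPM on coding transcripts. Atp5s, known as factor B and not a constant part of the enzyme, was the lowest at 20.5 TPM in replicate 1 and 22.0 TPM in replicate 2.

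Levels per length fell as transcripts became longer. Across the 77 members at 20 TPM or more, Spearman's rho between transcript length and TPM was -0.58 in replicate 1 and -0.56 in replicate 2, against -0.39 and -0.35 across all 4422 genes. These are descriptions across genes of the same libraries, and genes are not independent. Reads per gene were more even than TPM within some complexes. In complex III, the SD of log2 TPM across genes was 1.01 in replicate 1 and 0.97 in replicate 2. Its SD of log2 expected counts across genes was only 0.17 and 0.38. Its 8 genes each held between 8373 and 12434 counts in replicate 1. In complex I the SDs across genes were 0.92 and 0.90 for log2 TPM and 0.53 and 0.55 for log2 counts. Counts are not scaled for length, and how far the length scaling rather than the abundance sets the gap between small and large subunits was not tested.

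In each complex IV isoform group within the gene set, the general form made up nearly all of the transcripts. Cox6a1 is not among these groups because Cox6a2, given below, was left out of the gene set. Cox4i1 took 99.97% ± 0.04 (SD, n = 2) of the TPM of Cox4i1 and Cox4i2, Ndufa4 99.97% ± 0.04 against Ndufa4l2, Cox6b1 99.91% ± 0.03 against Cox6b2, Cox7b 99.71% ± 0.21 against Cox7b2, Cox8a 99.61% ± 0.49 against Cox8b and Cox8c, and Cox7a2 98.15% ± 0.25 against Cox7a1. Cox7a1, the heart and skeletal muscle form, was the restricted form with the highest mean within the gene set, with 21.2 TPM in replicate 1 against 19.2 TPM in replicate 2 from 121 and 113 counts. Cox8c, known from testis, had 0 counts in both areas, under a limit of 0.115 CPM in replicate 1 and 0.106 CPM in replicate 2 that a count of 0 allows, CPM being counts relative to the library total.

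Several restricted forms differed between the areas. Cox8b, a muscle form in rodents, had 26.9 TPM in replicate 1 and 1.37 TPM in replicate 2. This rested on 152 counts in replicate 1 and 8 in replicate 2, a ratio per total count of 20.6 with an exact 95% interval of 10.2 to 48.6. Cox4i2, the lung and hypoxia form, had 21 counts in replicate 1 and 1 in replicate 2, a ratio of 22.8 with an interval of 3.66 to 942. Ndufa4l2, a hypoxia-induced relative of Ndufa4, had 30 counts in replicate 1 and 0 in replicate 2. Cox7b2 went the other way, with 15 and 33 counts and a ratio of 0.49 (0.25 to 0.93). Cox6b2, known from testis, had 21 and 11 counts with an interval that spans 1 (0.95 to 4.76). Intervals cover counting error only, not the spread between areas. Cox6a2, the muscle form left out of the gene set, had 105 TPM in replicate 1 and 14.7 TPM in replicate 2, against 2190 and 1914 TPM for Cox6a1.

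**Figure D2:**
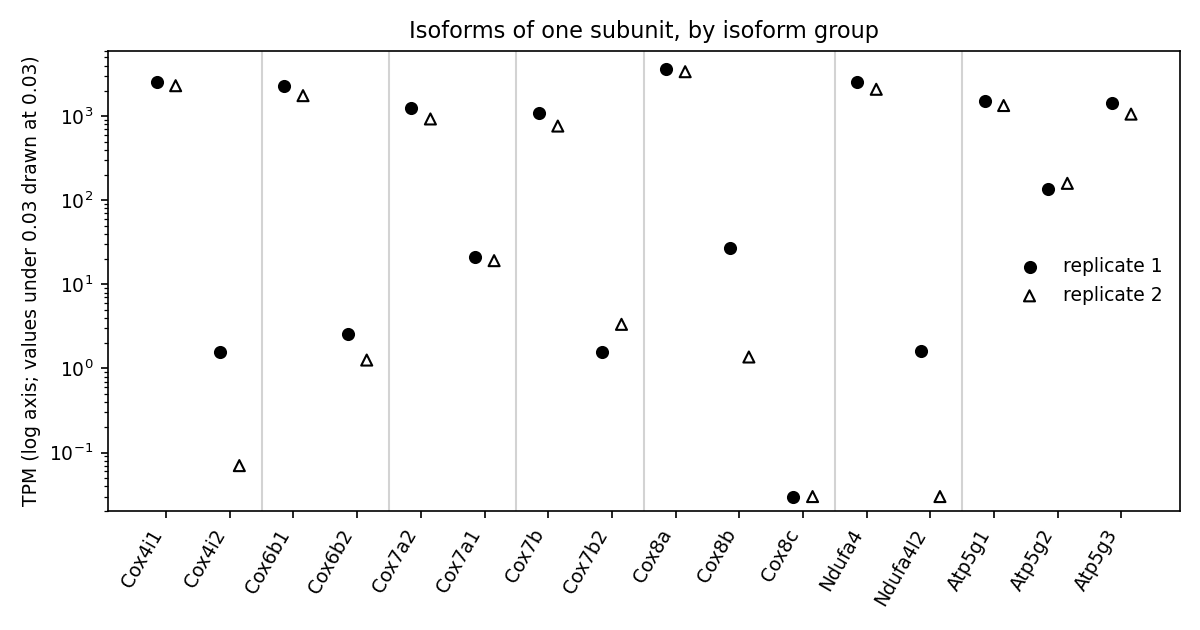
TPM (log axis) of each form of a subunit, grouped by subunit, with replicate 1 as filled circles left of replicate 2 as open triangles. The restricted forms plotted, which leave out Cox6a2, lie under 30 TPM, and Cox8b, Cox4i2 and Ndufa4l2 are higher in replicate 1.

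Marker lists of other cell types differed between the areas too. Fast-spiking interneuron markers were higher in replicate 1 for 8 of 8 genes, with summed levels of 1649 TPM in replicate 1 and 276 TPM in replicate 2. Mural cell markers, a list added after these values were seen, were higher in replicate 1 for 8 of 9 genes with sums of 26.7 and 7.08 TPM, and Acta2 had 0 counts in both areas. Most of this list was near the floor. Of the 9 genes, 2 reached 1 TPM in both areas, Rgs5 (7.53 and 4.44 TPM) and Vtn (14.4 and 2.39 TPM), and 0 averaged 20 TPM. Endothelial markers were higher in replicate 1 for 4 of 5 genes (113 and 51.3 TPM). Skeletal and heart muscle markers summed to 33.1 TPM in replicate 1 and 33.2 TPM in replicate 2 with 3 of 6 higher in replicate 1, and Myh6 was at 0 in both. Acta1 made up most of both sums with 24.8 and 30.3 TPM, and Ckm (0.23 and 0.37 TPM) was also higher in replicate 2. The 3 higher in replicate 1 were Tnnt2 (6.95 and 2.58 TPM), Myh7 (83 and 0 counts) and Mb (9 and 0 counts). The part of these cell types in the levels of Cox8b, Cox4i2, Ndufa4l2 or Cox6a2 was not tested. In bulk samples, fewer cells of a type and less RNA per cell cannot be told apart.

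The c subunit of the ATP synthase ring is encoded by Atp5g1, Atp5g2 and Atp5g3, which give the same mature protein. Here Atp5g1 and Atp5g3 held similar shares, and the reads of Atp5g1 and Atp5g2 are shared with pseudogenes described below. Atp5g1 took 49.6% of the summed TPM in replicate 1 and 52.4% in replicate 2, Atp5g3 46.0% and 41.4%, and Atp5g2 4.39% and 6.22%. By expected counts Atp5g3 came first instead, with 50.3% in replicate 1 against 44.8% for Atp5g1, while in replicate 2 Atp5g1 led with 47.6% against 45.4%.

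Near-identical pseudogenes held many of the reads of 5 members. A processed pseudogene is a copy of a spliced transcript inserted elsewhere in the genome, and reads that fit both places are divided by estimation. GENCODE M21 held 22 pseudogenes that share at least 50% of their 31-base words with a transcript of 15 members. Of these, 5 held 1000 counts or more on average. The whole sequence of Ndufb4c, 390 bases, occurs in a transcript of Ndufb4, and that of Gm12338, 192 bases, in one of Cox7c, a small general subunit of complex IV. The Gm12338 sequence is shown because no read lying wholly inside it can tell the pseudogene and Cox7c apart (GENCODE M21, GRCm38).
Cox7c and Gm12338 (chr11:75599763-75599954, minus strand): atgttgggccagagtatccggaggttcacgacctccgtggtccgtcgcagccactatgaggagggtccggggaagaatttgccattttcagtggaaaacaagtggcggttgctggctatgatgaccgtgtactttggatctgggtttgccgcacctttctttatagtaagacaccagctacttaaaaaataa
Ndufb4c was given 5201 counts in replicate 1 and 4389 in replicate 2, against 1688 and 1410 for Ndufb4 itself, so that the pseudogene held 75.5% and 75.7% of the sum. Gm10221 held 79.2% and 77.4% of the sum with Atp5l, the g subunit of the ATP synthase. Gm10175 held 61.0% and 58.0% with Atp5g2, Gm10039 15.1% and 15.5% with Atp5g1, and Gm12338 12.8% and 13.1% with Cox7c. These 5 genes also had the largest posterior SDs of their counts among members at 20 TPM or more, up to 4.93% of the mean for Atp5g2, where 74 of the 77 were under 1%.

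With the pseudogene's reads given to the member at the member's own length, an alternative added after seeing the data, Ndufb4 had 698 TPM in replicate 1 and 517 TPM in replicate 2. It then ranked 14 in replicate 1 and 19 in replicate 2 among the 35 genes of complex I, where it ranks 34 in both as deposited. Atp5l had 1355 and 1126 TPM in this way and moved to place 7 in replicate 1 and 5 in replicate 2 out of 17. Atp5g2 had 347 and 379 TPM and stayed at place 16. The difference between the areas changed little for Ndufb4, 0.43 on the log2 scale with all reads given to it and 0.44 as deposited, for Cox7c, 0.49 in both, and for Atp5g1, 0.18 and 0.19. It changed by more than 1.5 times for the other two. Atp5l had a log2 ratio of 0.27 with the added reads and 0.15 as deposited, and Atp5g2 had -0.13 and -0.23.

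**Figure D3:**
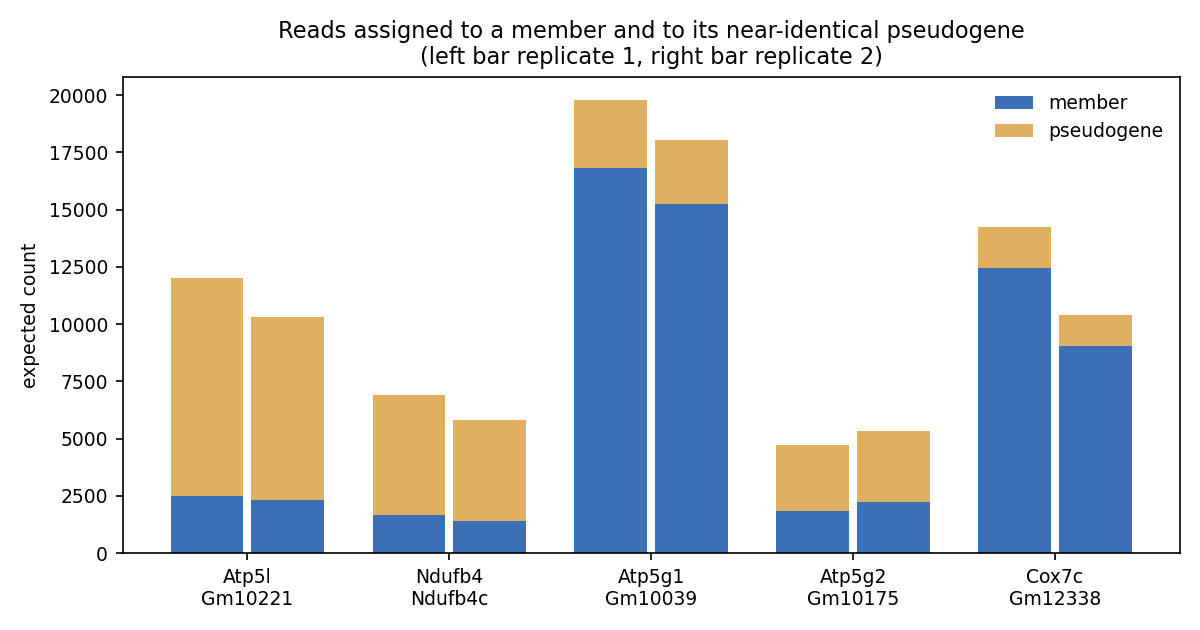
Expected counts given to 5 members and, stacked above, to the near-identical pseudogene of each, with replicate 1 as the left bar and replicate 2 as the right bar. The pseudogene holds the larger share for Atp5l, Ndufb4 and Atp5g2.

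Most members were carried by transcripts annotated as coding. Of the 77 members at 20 TPM or more, 23 were listed with 1 transcript, and 70 had a coding transcript in the lead. In 57, coding transcripts took at least 90% of the TPM in both areas. In 7 the leading transcript was not coding. Ndufa5, an accessory subunit of the peripheral arm, had 14.3% of its TPM on coding transcripts in replicate 1 and 13.5% in replicate 2, with Ndufa5-204, a processed transcript of 453 bases, at 84.2% and 86.3%. Ndufa10 had 11.2% and 10.7% on coding transcripts, Atp5f1 (the stalk b subunit) 28.1% in both, Cox7b 33.5% and 30.1%, Cox5b 34.2% and 32.9%, Atp5j 35.7% and 38.7%, and Ndufb4 18.3% and 27.3%. Leading transcripts were retained introns for Ndufa10, Cox7b, Atp5j and Ndufb4, a nonsense-mediated decay transcript for Atp5f1 and a processed transcript for Cox5b. By counts, which are not scaled for transcript length, coding transcripts held 12.2% in replicate 1 and 11.9% in replicate 2 for Ndufa5, 25.004% and 24.4% for Ndufa10, and 32.8% and 32.9% for Atp5f1. For Ndufb4 they held 34.8% and 47.3%, for Atp5j 47.1% and 50.5%, for Cox7b 55.05% and 50.9%, and for Cox5b 57.5% and 56.3%. For Atp5b, Atp5b-201 of 1916 bases held 56.4% of the TPM in replicate 1 and 61.1% in replicate 2, but coding transcripts held 85.3% and 87.4% of its counts. Transcripts of a gene overlap, so these shares are estimates.

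The genes were higher in replicate 1 as a group, by small amounts. Among the 77 members at 20 TPM or more, 67 were higher in replicate 1, where 44.3% of all 4422 genes were, and 10 were higher in replicate 2, where 55.6% of all genes were. The median log2 ratio of TPM + 1, replicate 1 over replicate 2, was 0.22 for these members and -0.05 for all genes. Beyond 1.5-fold there were 3 members in replicate 1, against 3.84% of all genes, and 0 in replicate 2, against 8.12%. More than 25% higher in replicate 1 were 24 members (all genes 14.0%), and 0 were so in replicate 2 (22.0%). On the spike-in scale, where the median of all genes was 0.12, 73 of the 77 were higher in replicate 1, as were 64.2% of all genes. With 1 library on each side there is no p-value.

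By complex, the median log2 ratio at 20 TPM or more was 0.23 for complex I with 33 of 35 genes higher in replicate 1, 0.22 for complex III with 7 of 8, 0.29 for complex IV with 12 of 13 and 0.18 for complex V with 14 of 17. Complex II differed in sign at -0.05, with 1 of 4 genes higher in replicate 1, though under CPM scaling with TMM factors its median was 0.01. Over all of their genes, the medians of complexes I, III, IV and V were 0.23, 0.22, 0.33 and 0.18. They were 0.08, 0.12, 0.21 and 0.13 with a trend over GC content and length removed, and 0.40, 0.40, 0.51 and 0.36 on the spike-in scale. Within complex I the 28 accessory subunits had a median of 0.25 and the 7 core subunits 0.07. The members beyond 1.5-fold were Atp5k (0.63), a membrane subunit of the ATP synthase, Uqcrb (0.61) and Atp5e (0.61), the epsilon subunit of its central stalk.

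Atp5k had 974 TPM in replicate 1 and 629 TPM in replicate 2, a ratio per total count of 1.62 with an interval of 1.56 to 1.69. Atp5e had 1065 and 697 TPM. Ndufb11 (391 and 265 TPM), Cox7b (1100 and 763 TPM) and Atp5mpl (1469 and 1037 TPM), a small membrane subunit of the ATP synthase, followed with log2 ratios of 0.56, 0.53 and 0.50. The lowest ratios were those of Atp5g2 (-0.23), Uqcrc1 (-0.23), Sdha (-0.20), Ndufv1 (-0.19), Atp5s (-0.09) and Sdhd (-0.09). With the reads of its pseudogene added, Atp5g2 was at -0.13, behind Uqcrc1, Sdha and Ndufv1. Ndufv1, which binds NADH and flavin, had 208 TPM in replicate 1 and 237 TPM in replicate 2. The gene set thus spanned -0.23 to 0.63, an SD across genes of 0.20 against 0.49 for all genes at the same minimum.

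**Figure D4:**
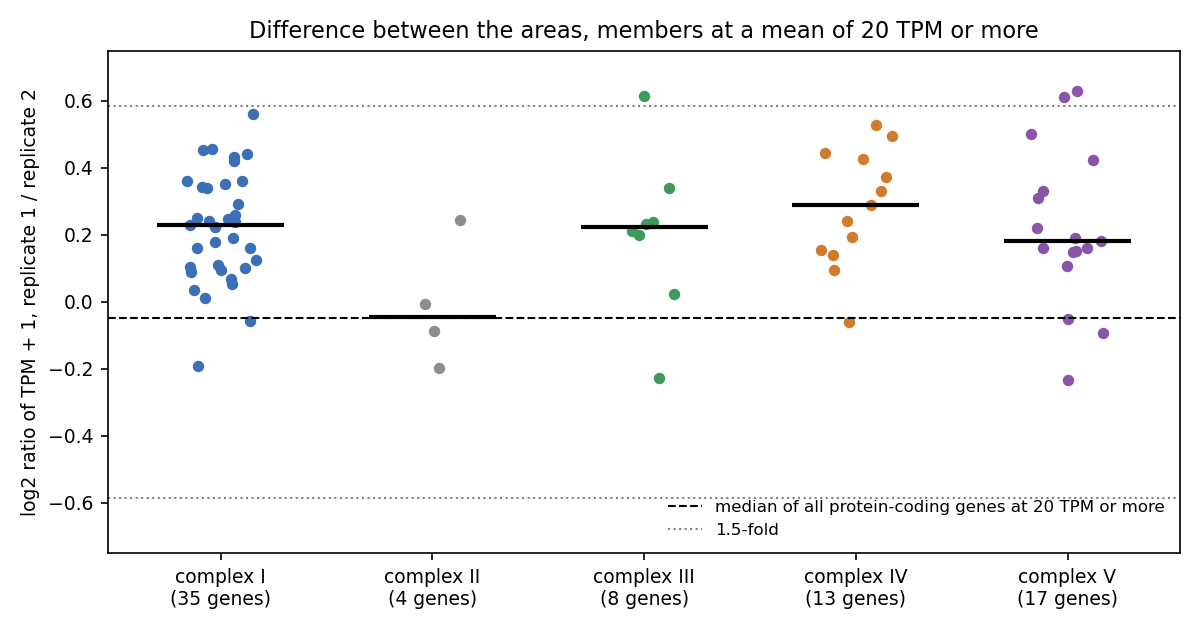
Log2 ratio of TPM + 1, replicate 1 over replicate 2, for the 77 genes averaging 20 TPM or more, by complex, with bars for medians. The dashed line is the median of all protein-coding genes at that minimum, and dotted lines mark 1.5-fold.

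Transcript length moved with this difference. Under 600 bases, 31 of 31 members were higher in replicate 1 with a median log2 ratio of 0.26, while 83.9% of 137 other genes of that length were also higher there, with a median of 0.30. Between 600 and 1000 bases, 22 of 25 members were higher in replicate 1 with a median of 0.22, against 58.8% of 577 other genes and 0.06. Over 1000 bases, 14 of 21 members were higher in replicate 1 with a median of 0.10, against 39.6% of 3631 other genes and -0.08. Short members therefore lay near other short genes, and the longer members above other genes of their length class. The class over 1000 bases has no upper bound, while its longest member has 2661 bases. The members and other genes of that class were not matched in length. With a trend over GC content and length removed, the median of all 83 members was 0.10, against 0.22 before. Of the 77 members at 20 TPM or more, 59 were then higher in replicate 1, where 45.8% of all genes at that minimum were. The median of all genes at that minimum was -0.03 in this setting. Of the longer members, Ndufa11 had 178 TPM in replicate 1 and 133 TPM in replicate 2, but it was quantified on 1 transcript of 2661 bases.

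**Figure D5:**
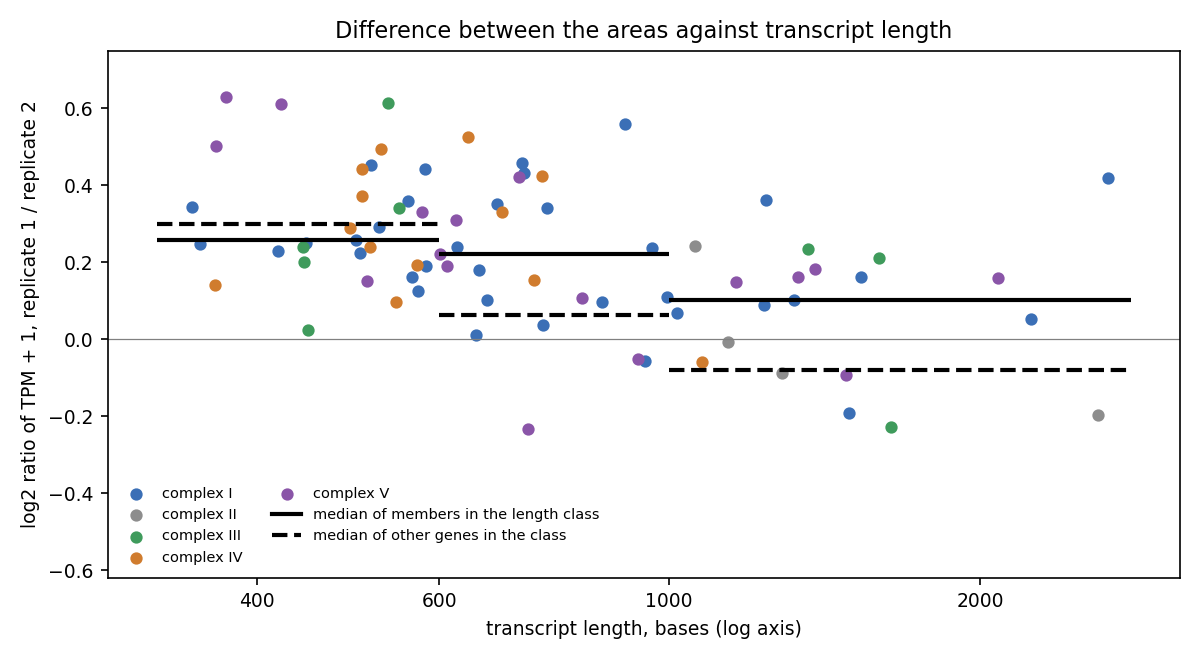
Log2 ratio of TPM + 1, replicate 1 over replicate 2, against transcript length (log axis) for the 77 genes at 20 TPM or more, coloured by complex. Solid lines are the medians of these genes in each length class and dashed lines those of other protein-coding genes. The lines lie close together under 600 bases and apart above it.

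Cell type markers moved between the areas beside this difference. Beside the lists given above, microglial markers summed to 253 TPM in replicate 1 and 91.5 TPM in replicate 2, with 7 of 8 higher in replicate 1. Excitatory neuron markers summed to 1334 and 1714 TPM with 0 of 6 higher in replicate 1, oligodendrocyte markers to 570 and 1114 TPM with 0 of 8, and astrocyte markers to 1202 and 1360 TPM with 2 of 6. Erythrocyte markers summed to 16.01 TPM in replicate 1 and 586 TPM in replicate 2, with 1 of 5 higher in replicate 1. The part of these in the difference of the subunit genes was not tested.

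Other genes of the pathway were measured beside them. For comparison, 44.3% of all protein-coding genes at 20 TPM or more were higher in replicate 1. Of the 13 subunits encoded in mitochondrial DNA, 10 were higher in replicate 1, with a median log2 ratio of 0.11 and summed levels of 72928 TPM in replicate 1 and 67208 TPM in replicate 2. Of 7 further nuclear subunits and regulators, a list that includes Cox6a2, 5 were higher in replicate 1, among them Cox6a2 itself, Usmg5, a small ATP synthase subunit (3318 and 2375 TPM), and Ndufab1, the acyl carrier protein of complex I (1258 and 983 TPM), while Cyc1, cytochrome c1 of complex III, had 359 and 376 TPM. Of 47 assembly factors, 32 reached 20 TPM, and 20 of these were higher in replicate 1, 3 of them beyond 1.5-fold (all genes 3.84%). Those were Cox20 (126 and 70.5 TPM), Ndufaf5 (93.4 and 55.7 TPM) and Sdhaf4 (219 and 132 TPM), which take part in the assembly of complexes IV, I and II. These 3 were named after their values were seen. The median over all 47 was 40.2 TPM in replicate 1 against 39.8 TPM in replicate 2.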

How the data were processed

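Both libraries were made with a Smart-seq protocol from laser-captured tissue, with spike-in RNA added, per the labels. The deposited gene and transcript tables hold an expected count per feature, which need not be whole because the authors' program divides shared reads, with a posterior mean and a posterior standard deviation of that count. The posterior SD is treated as a score in the deposited tables. TPM, with its posterior mean, was scaled by the authors to a fixed sum that includes spike-ins and mitochondrial genes. The deposited transcript tables also give each transcript's percent of its gene. The assembly was mm10 and the annotation M4, per the text files deposited with the tables. Program, aligner and strand setting are not given in the sources used here, so reads cannot be told apart where genes overlap or lie antisense.

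Symbols, gene classes and positions came from GENCODE M21 of GRCm38, the same assembly, and promoters from RefSeq. Members and lists were chosen with earlier results of these data known. Complex and isoform groups were set by symbol. Named genes were, in each complex, the 4 highest and 2 lowest by mean TPM, all isoform-group members, the 6 highest and 6 lowest log2 ratios at a mean of 20 TPM or more, genes under 1 TPM in both areas, Cox8a, Atp5b, Ndufa4 and Uqcrb, members led by a non-coding transcript, and the 5 largest posterior SDs relative to the mean. Others, such as Atp5a1, Sdhc and Ndufa11, were named after their values were seen.

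Ratios were log2 of TPM + 1, replicate 1 over replicate 2, which understates the changes of low genes. Called means beyond 1.5-fold. Count ratios per total carry exact Clopper-Pearson 95% intervals, and a count of 0 allows up to 3 counts. Reads have no molecular identifiers, so both cover counting error only. Libraries were checked for being copies: over 14131 genes, chi-square divided by its degrees of freedom was 69.5. Expected counts were rounded for TMM factors (edgeR 4.0.16) and size factors (DESeq2 1.42.0) in R 4.3.3. The GC and length trend was a polynomial of degree 3 over 11841 genes at 1 TPM or more and explained 1.84% of the variance. Python 3.11.15 with scipy 1.17.1, pandas 2.3.3 and numpy 2.4.6 did the rest, and ratios were tested on simulated data. Alternatives were another pseudocount, other minimums and folds, other scalings, posterior means and leaving out each library. Centring on the median gene, adding pseudogene reads and moving Ndufa4 were added after seeing the data.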

Additional observations from a re-analysis of the deposited data

How the results depend on the processing

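The median level of all members was 648 TPM. It was 1022 TPM when TPM was rescaled over nuclear protein-coding genes and 399 TPM from the mean of log2(TPM + 1). Leaving out one library gave 612 to 684 TPM, and posterior means, a minimum of 1 TPM and added pseudogene reads moved it by less than the spread between the areas. The median log2 ratio of all 83 members was 0.22. It was 0.28 with TMM factors and 0.28 with DESeq2 size factors, 0.24 over nuclear protein-coding genes, 0.40 on the spike-in scale, which moves the median of all genes by 0.17, 0.27 when centred on the median gene, 0.10 with the GC and length trend removed, 0.23 with pseudogene reads added and 0.23 without members of uncertain read assignment. It was positive in each setting tried. For complex II, -0.05, the sign reversed to 0.0061 with TMM factors, 0.0037 with DESeq2 size factors, 0.13 on the spike-in scale and 0.00091 when centred.

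Members beyond 1.5-fold in replicate 1 numbered 3. There were 5 with TMM factors (all genes 4.43%), 5 with DESeq2 size factors (4.34%) and 15 on the spike-in scale (9.38%). There was 1 with the trend removed (3.75%), and 5 of 80 at a minimum of 1 TPM (11.6%). Beyond 2-fold there were 0 (1.04%), and 24 were more than 25% higher (14.02%). In replicate 2 there were 0, and 1 of 80 at a minimum of 1 TPM, against 15.04% of all genes there. Leading isoform shares stayed within the spread between the areas except Cox6b1, 99.85% by posterior mean TPM, Cox7a2, 99.24% by counts, and Atp5g1, 46.2% by counts. Leaving out one library gave 99.94% to 99.997% for Cox4i1, 99.89% to 99.93% for Cox6b1, 97.98% to 98.32% for Cox7a2, 99.56% to 99.86% for Cox7b, 99.26% to 99.96% for Cox8a, 99.94% to 100% for Ndufa4 and 49.6% to 52.4% for Atp5g1. Differences between the areas cannot be given without one of the libraries. The causes of these changes were not tested. No paired analysis was possible because the libraries form 1 group. Small differences between 2 areas of 1 animal say nothing about the spread between animals.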

Other observations

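Regulators of mitochondrial biogenesis were low beside the subunit genes. The 12 genes of the list had a median of 7.57 TPM in replicate 1 and 6.14 TPM in replicate 2. Ppargc1a, the coactivator that raises mitochondrial gene expression, had 15.8 and 13.1 TPM, and Nrf1, whose core motif was counted in the promoters, 4.90 and 3.36 TPM. Gabpa, the DNA-binding subunit of GABP, had 0.82 TPM in replicate 1 against 5.12 TPM in replicate 2. Tfam, which packages mitochondrial DNA, had 21.5 and 39.7 TPM. Of the 12, 8 were higher in replicate 1. Only 2 of the 12, Tfam and Tfb2m, averaged 20 TPM or more, and of these 1 was higher in replicate 1 and 1 in replicate 2.

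Proteins of the mitochondrial ribosome, which translates the subunits encoded in mitochondrial DNA, were measured at 91.3 TPM in replicate 1 and 79.8 TPM in replicate 2 as the median of 77 genes. Of the 76 at 20 TPM or more, 46 were higher in replicate 1 and 30 in replicate 2, with a median log2 ratio of 0.07. Among all protein-coding genes at that minimum, 44.3% were higher in replicate 1, with a median of -0.05. Mitochondrial carriers and membrane proteins had a median of 236 and 206 TPM over 13 genes, 8 of them higher in replicate 1, with a median log2 ratio of 0.05. Slc25a4, the ADP/ATP carrier, led them at 1021 TPM in replicate 1 against 897 TPM in replicate 2.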
